A study of Bos taurus with 6 samples.

Results

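The genes described here make, inactivate or sense prostaglandins. They are PLA2G4A, PTGS1, PTGS2, PTGES, PTGES2, PTGES3, PTGIS, HPGD, PTGER2 and PTGER4, chosen by name, and 10 of the 17663 genes of the table carry these names. The groups were bovine fetal fibroblasts (bEFs) of fat-1 transgenic (FT) fetuses and bEFs of wild-type (WT) Luxi cattle fetuses, all in primary culture from fetuses of 50 to 60 days. The fat-1 gene of Caenorhabditis elegans encodes a desaturase that turns n-6 polyunsaturated fatty acids (PUFA) into n-3 PUFA. Each group had 3 fetuses with 1 poly(A) RNA library each (FT_1 to FT_3 and WT_1 to WT_3), with the head, limbs, inner organs and bones removed before culture. The promoter of the transgene, the breed of the FT fetuses and their kinship were not given in the sources used here, and the fat-1 transcript was not analysed here. The p-values measure the spread between these libraries, so FT and any other trait that the FT fetuses share cannot be told apart.

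Prostaglandins are short-lived lipid signals made from PUFA that a phospholipase frees from membranes. Cyclooxygenases turn the freed fatty acid into prostaglandin H2, and terminal synthases turn that into prostaglandin E2 (PGE2), prostacyclin and other prostanoids. PGE2 acts on G protein-coupled receptors of the cell surface until it is oxidised inside cells. Fibroblasts are a known source of PGE2, and both n-6 and n-3 PUFA can enter the pathway.

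Counts summed to 63366834, 48167642 and 54204446 in the libraries FT_1 to FT_3 and to 69777641, 51310741 and 54271927 in WT_1 to WT_3. FT_1 stood apart from the other FT libraries. Of 13482 genes with enough counts for the test, 22.7% differed over 2-fold in CPM (counts scaled to library size, with TMM factors) between FT_1 and FT_2 and 23.1% between FT_1 and FT_3. The share was 5.27% between FT_2 and FT_3 and 4.26% to 5.30% among the WT libraries. The coefficient of variation between libraries beyond counting noise was 56.2% for FT_1 and FT_2, and 8.22% for FT_2 and FT_3. Fold changes of the genes of the pathway are therefore given with all 6 libraries and without FT_1, and without FT_1 the FT group holds 2 libraries that lie close together.

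All 10 of the fibroblast markers were detected, with summed levels of 6828, 17047 and 16783 FPKM (fragments per kilobase of gene, scaled to library size) in FT_1 to FT_3 and 17821, 17272 and 17360 FPKM in WT_1 to WT_3. By the edgeR test described below 1 of the 10 rose in FT (PDGFRA) and 0 fell, where 20.1% of all genes were called higher and 18.9% lower. VIM missed the threshold of that test (adjusted p = 0.0902, unadjusted p = 0.0432) and was called lower by DESeq2 and by limma. Without FT_1 5 rose and 1 fell (VIM), where 30.6% of all genes were called higher and 31.5% lower. The calls of the marker lists that follow stand against the same shares. VIM, the most abundant in FT_3 and the WT libraries, had 1244, 3850 and 4171 FPKM in FT_1 to FT_3 and 7891, 8178 and 7312 FPKM in WT_1 to WT_3. DCN, the most abundant in FT_1 and FT_2, had 1803, 4092 and 3769 FPKM in FT_1 to FT_3 and 2299, 2054 and 2227 FPKM in WT_1 to WT_3. Epithelial markers went the other way in FT_1. All 7 of them had counts, and their summed levels were 448, 12.8 and 11.9 FPKM in FT_1 to FT_3 and 10.1, 7.96 and 13.9 FPKM in WT_1 to WT_3. KRT5, a keratin of basal epithelium, was the most abundant in FT_1, at 172, 2.57 and 1.63 FPKM in FT_1 to FT_3, and it had 0 counts in every WT library. In the other 5 libraries the most abundant was the cadherin CDH1, at 36.3, 7.11 and 8.41 FPKM in FT_1 to FT_3 and 10.03, 7.83 and 13.9 FPKM in WT_1 to WT_3. KRT8, KRT14 and KRT18 also had 0 counts in every WT library, and EPCAM had 58 counts in FT_1 and 0 in the other 5 libraries. Of the 6 epithelial markers tested 0 were called with all libraries by edgeR or limma, and DESeq2 gave an adjusted p to CDH1 but not to the other 5. In edgeR 4 (KRT5, KRT8, KRT14 and KRT18) were higher at an unadjusted p under 0.05. The same 4 were called higher without FT_1, and with or without that library they passed the filter on low counts through FT alone. Those 4 calls rest on low counts in FT_2 and FT_3, which for KRT5 were 319 and 228 against 28017 in FT_1, and for the 4 keratins were 0.616% to 2.33% of the counts in FT_1. Whether reads of FT_1 were carried over into FT_2 and FT_3 was not tested. In bulk RNA, fewer cells of a type and less RNA per cell cannot be told apart, and the part of these markers in the results on prostaglandin genes was not tested.

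Mesothelial markers, 5 of 7 in the table, had sums of 215, 45.1 and 46.3 FPKM in FT_1 to FT_3 against 2.35, 3.51 and 3.34 in WT_1 to WT_3. MSLN was the most abundant, at 199, 44.9 and 46.2 FPKM in FT_1 to FT_3 and 2.08, 3.18 and 3.06 FPKM in WT_1 to WT_3, so the sums of FT_2 and FT_3 were nearly all MSLN. Of the 2 tested, MSLN rose (log2 fold change 5.26, adjusted p = 0.00346, and 4.21, adjusted p = 5.34e-08 without FT_1) and UPK3B was not called. UPK3B had 1.03, 0.10 and 0.09 FPKM in FT_1 to FT_3 and 0.20 to 0.25 FPKM in WT. UPK1B had 1211 counts in FT_1, 0 in FT_2 and FT_3, and 0, 4 and 0 in WT_1 to WT_3. WT1 had 0 counts in the FT libraries and only 7, 6 and 4 in WT_1 to WT_3. Neither gene was tested by edgeR. Smooth muscle and myofibroblast markers summed to 2489, 3758 and 3620 FPKM in FT_1 to FT_3 and to 1095, 1076 and 1201 in WT_1 to WT_3, with ACTA2 as the most abundant in all libraries but WT_2, where it was TAGLN. Of these 6 markers 5 rose in FT, where 20.1% of all genes were called higher, and 6 without FT_1, where 30.6% were. Both counts include DES, which had 873, 463 and 413 counts in FT_1 to FT_3 and 12, 0 and 0 in WT_1 to WT_3. DES passed the filter on low counts through FT alone, so the size of its rise is uncertain. Adipocyte markers summed to 2.91, 19.0 and 19.8 FPKM in FT_1 to FT_3 and to 154, 138 and 155 in WT_1 to WT_3. FABP4, the most abundant in WT, had 0.08, 4.67 and 5.95 FPKM in FT_1 to FT_3 and 140.3, 127.9 and 143 FPKM in WT_1 to WT_3, and LPL, the most abundant in FT, had 1.47, 8.04 and 7.81 FPKM in FT_1 to FT_3. Of the 5 adipocyte markers tested 1 rose (LEP) and 2 fell (FABP4 and CD36), with the same counts without FT_1. CD36 had 0, 8 and 12 counts in FT_1 to FT_3 and 1239, 644 and 460 in WT_1 to WT_3. It passed the filter on low counts through WT alone. LEP had 0.03, 4.91 and 4.45 FPKM in FT_1 to FT_3 and 0.09, 0.07 and 0.02 FPKM in WT_1 to WT_3, so FT_1 lay within the WT range and its call rests on FT_2 and FT_3, and limma did not call it (adjusted p = 0.103). The part of these lists in the results was not tested either.

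**Figure D1:**
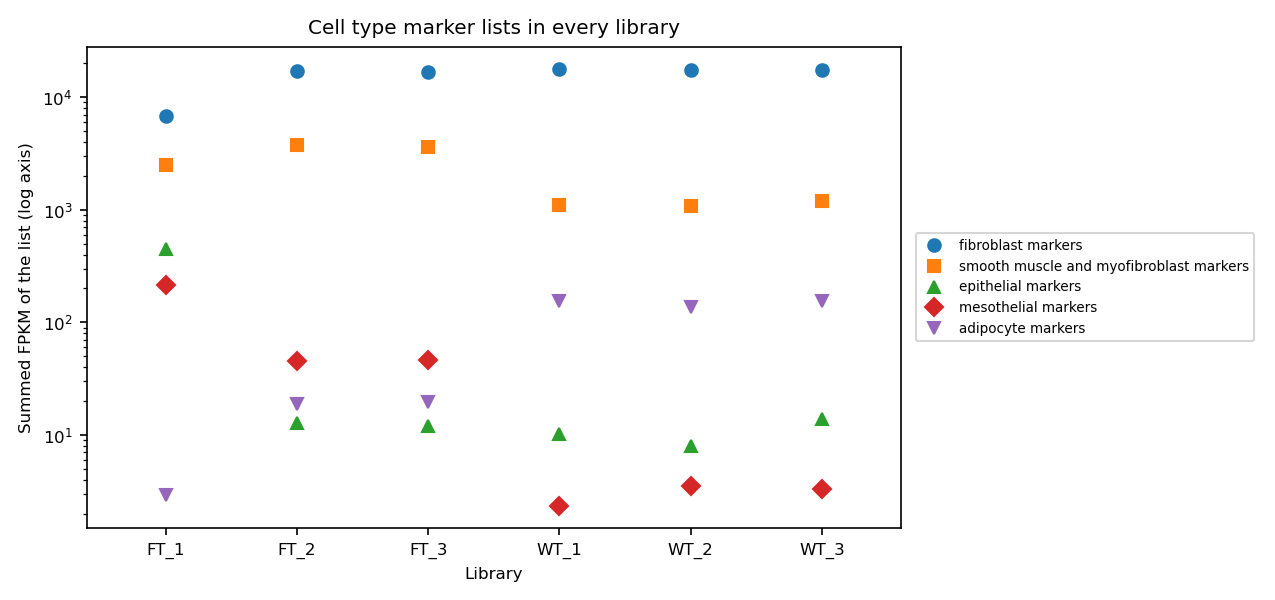
Summed FPKM of 5 cell type marker lists (y axis, log scale) in each of the 6 libraries (x axis), with 1 point per list and library. FT_1 has the lowest sum of fibroblast markers, 6828 FPKM, and the highest sum of epithelial markers, 448 FPKM.

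Macrophage and other leukocyte markers, 7 of 8 in the table, summed to 3.60 to 4.43 FPKM in FT and 9.68 to 11.2 FPKM in WT, and CD14 was the most abundant. Of the 4 tested 2 fell (CD68 and CD163), and 3 of 5 without FT_1 (CD14 as well). CD163 had 41, 0 and 6 counts in FT_1 to FT_3 and 767, 522 and 512 in WT_1 to WT_3. It passed the filter on low counts through WT alone. With all libraries CD14 was called lower by limma (adjusted p = 0.0437) and not by DESeq2 (adjusted p = 0.0758). Endothelial markers, 7 of 7 in the table, summed to at most 1.08 FPKM in FT and 1.56 FPKM in WT, where PECAM1 was the most abundant, and in FT_2 and FT_3 VWF was. PECAM1 was called lower without FT_1 (adjusted p = 0.000451) and not with all libraries (adjusted p = 0.108). Mast cell markers, 3 of 6 in the table, summed to 0.54 to 1.90 FPKM in FT and 1.27 to 1.47 FPKM in WT, nearly all from GATA2, which was called lower without FT_1 (adjusted p = 0.0181) and not with all libraries (adjusted p = 0.831). Skeletal muscle lineage markers, 3 of 6 in the table, summed to 0.15 FPKM in FT_1 and 6.12 to 7.83 FPKM in the other 5 libraries, led by PAX3. Without FT_1 PAX3 was called higher (adjusted p = 0.0487) and MYF5 lower (adjusted p = 0.0129), with adjusted p = 0.858 and 0.212 with all libraries. In FPKM, PAX3 had 5.57 and 6.02 in FT_2 and FT_3 and 5.31, 4.81 and 5.90 in WT_1 to WT_3, which overlap. With all libraries MYF5 was called lower by limma (adjusted p = 0.0376) and not by DESeq2 (adjusted p = 0.151). Cartilage markers, 5 of 6 in the table, summed to 2.31 FPKM in FT_1 and 0.31 to 1.06 FPKM elsewhere, with SOX9 as the most abundant in the FT libraries and ACAN in the WT libraries. Of the 2 cartilage markers tested ACAN was called lower, with and without FT_1. Neural and glial markers, 2 of 6 in the table, reached at most 3.74 FPKM, nearly all from TUBB3, which fell with all libraries (adjusted p = 0.0384) and without FT_1 (adjusted p = 0.0015). Red blood cell markers, 2 of 7 in the table, reached at most 0.83 FPKM, from AHSP, which had 0 counts in every FT library and 17, 22 and 0 counts in WT_1 to WT_3, too few for the test with all libraries. Without FT_1 AHSP passed the filter through WT alone and was called lower (adjusted p = 0.0476).

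FT was compared with WT to ask which prostaglandin genes differ when the cells carry fat-1. All 10 genes passed the filter on low counts. With all 6 libraries PTGES3 was lower in FT and the other 9 were not called at an adjusted p under 0.05 (edgeR quasi-likelihood test, Benjamini-Hochberg adjustment over all genes tested). So 0 of 10 were called higher, where 20.1% of all genes were, and 1 of 10 was called lower, where 18.9% were. At an unadjusted p under 0.05 the same test had 2 of them higher (PTGS2 and PTGER4), where 25.7% of all genes were, and 2 lower (PTGES2 and PTGES3), where 23.9% were. DESeq2 called 2 higher and 1 lower, where it called 22.4% of the genes to which it gave an adjusted p higher and 20.6% lower. Limma on log2(FPKM + 1) called 0 higher and 2 lower, where it called 15.0% of all genes higher and 29.2% lower. The median log2 fold change of the 10 genes was -0.01, against 0.03 over all genes.

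Without FT_1 the picture was different. The same test called 6 of 10 higher (PLA2G4A, PTGS1, PTGS2, HPGD, PTGER2 and PTGER4), where 30.6% of all genes were called higher, and 3 of 10 lower (PTGES2, PTGES3 and PTGIS), where 31.5% were. PTGES was the one gene not called. The median log2 fold change was 0.40, against -0.02 over all genes. So 8 of these 9 calls were gained in this test when 1 library was left out, and calls over all genes were also more frequent without it. Other choices also called 3 of these 8 genes with FT_1 kept. They were PTGS2 (DESeq2, or a trend on gene length removed), PTGER4 (DESeq2) and PTGES2 (limma, or total counts as the only scaling).

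A second threshold, that of the study's methods, asks for a log2 fold change beyond 1 in either direction at p under 0.05 with no adjustment. It called 0 of the 10 genes in either direction with all 6 libraries, where 10.2% of all genes were called higher and 8.96% lower. Without FT_1 it called 3 higher (PTGS2, PTGER2 and PTGER4) and 2 lower (PTGES3 and PTGIS), where 11.0% of all genes were higher and 12.2% lower. In FPKM, the groups did not overlap for 3 of the 10 genes, all lower in FT (PTGES2, PTGES3 and PTGIS), and 36.9% of all genes tested were lower without overlap. None was higher without overlap, where 21.8% of all genes were. With 3 libraries a group, the smallest p of a two-sided exact permutation test of a single gene is 0.10, so no call rests on it.

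In CPM, FT_1 differed over 2-fold from both FT_2 and FT_3 in the same direction for 6 of the 10 genes, a count made after the values were seen, and for 19.2% of all genes. It was lower for PTGS1, PTGS2, HPGD, PTGER2 and PTGER4 and higher for PTGIS. PTGER4 was at the edge, with a log2 difference of -1.0009 from FT_3, and in FPKM it differed from FT_3 by under 2-fold. The direction of the calls over all genes also moved with the processing. Of the genes called with all 6 libraries 51.6% were higher in FT, and this share was 37.6% with total counts as the only scaling and 65.1% with a trend on gene length removed. It was 34.0% with limma on log2(FPKM + 1), which also differs in the measure, the test and the genes tested (12247). The median log2 fold change of all genes was -0.12 with total counts only, -0.12 with limma and 0.17 with the length trend removed.

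**Figure D2:**
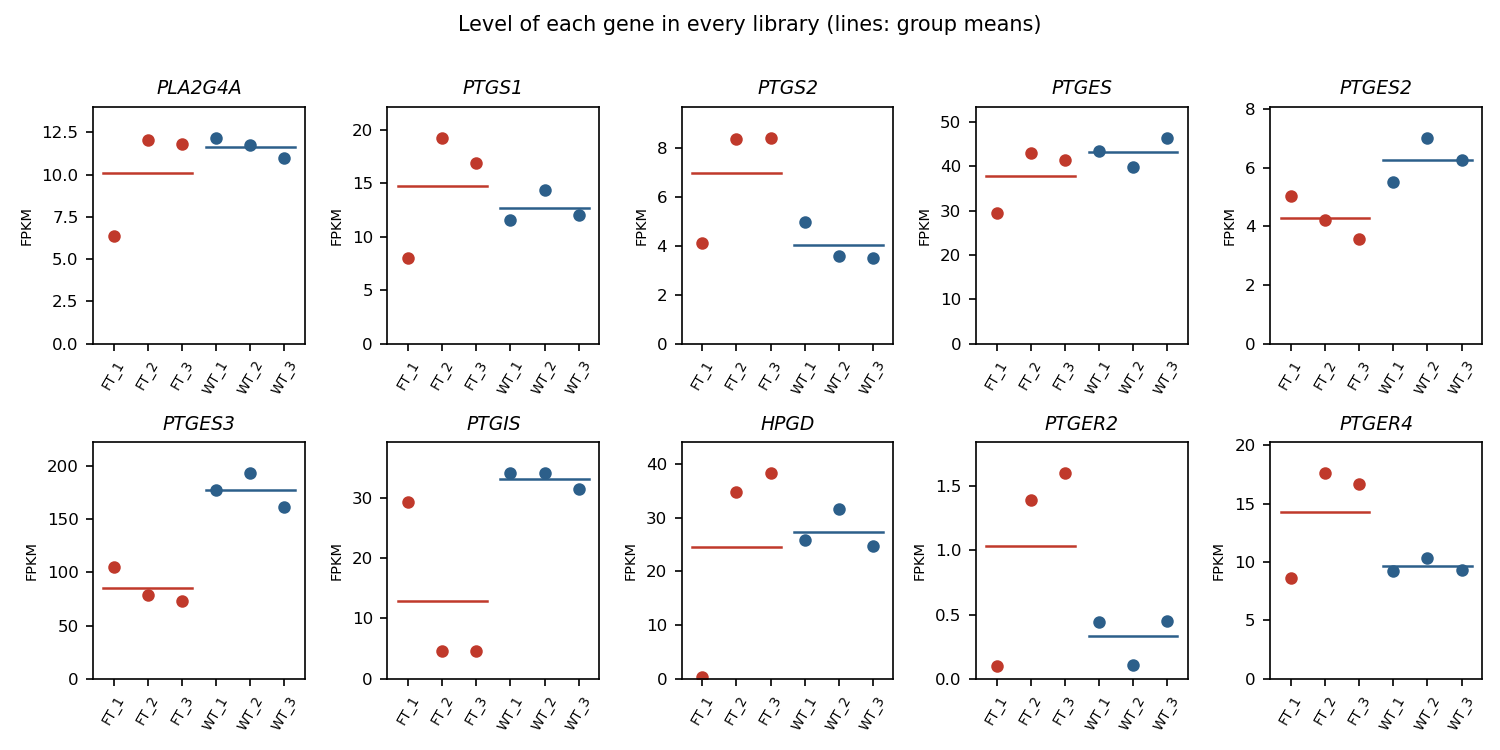
FPKM (y axis, from 0) of each of the 10 genes in the 3 FT (red) and 3 WT (blue) libraries (x axis), with 1 point per library and a line at each group mean. For HPGD, FT_1 sits at 0.34 FPKM and the other 5 libraries between 24.8 and 38.3 FPKM, and for PTGIS, FT_1 sits near the WT libraries.

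The 4 most abundant of the 10 genes ranked the same in each WT library. In mean FPKM over WT, PTGES3 stood first at 177 ± 16.1 (SD, n = 3), then PTGES at 43.3 ± 3.24 and PTGIS at 33.2 ± 1.56, followed by HPGD at 27.4 ± 3.65, whose libraries overlapped those of PTGIS. PTGS1 at 12.7 ± 1.49 and PLA2G4A at 11.6 ± 0.60 did not differ beyond their spread. PTGER4 at 9.65 ± 0.61, PTGES2 at 6.26 ± 0.76, PTGS2 at 4.02 ± 0.83 and PTGER2 at 0.33 ± 0.19 came last, in that order of level. In FT the first places were PTGES3 at 85.5 ± 17.1 and PTGES at 37.9 ± 7.41.

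Release of the fatty acid was represented by PLA2G4A, the cytosolic phospholipase A2 that frees arachidonic acid from membrane phospholipids (ENSBTAG00000013298, chromosome 16, 67906979 to 68081283, plus strand). Its level was 6.35, 12.1 and 11.8 FPKM in FT_1, FT_2 and FT_3 and 12.2, 11.7 and 11.0 FPKM in WT_1, WT_2 and WT_3. FT_1 was the low library, and FT_2 and FT_3 lay within the WT range. With all 6 libraries the log2 fold change was -0.04 (SE 0.26, 95% interval -0.67 to 0.59, adjusted p = 0.906). Without FT_1 it was 0.21 (SE 0.08, adjusted p = 0.043), and over 16 alternatives the adjusted p ran from 0.043 to 0.978. The call without FT_1 is in counts, and in FPKM both remaining libraries overlapped WT.

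Of the cyclooxygenases, PTGS1 (cyclooxygenase-1) is the form that many cells keep on, and PTGS2 (cyclooxygenase-2) is the form that stimuli induce. PTGS1 (ENSBTAG00000006716, chromosome 11, 93236273 to 93262107, plus strand) had 7.97, 19.3 and 17.0 FPKM in FT_1 to FT_3 and 11.6, 14.4 and 12.1 FPKM in WT_1 to WT_3. FT_1 lay below all WT libraries, and FT_2 and FT_3 lay above them. Its log2 fold change was 0.38 with all 6 libraries (SE 0.33, 95% interval -0.43 to 1.19, adjusted p = 0.398) and 0.69 without FT_1 (SE 0.10, adjusted p = 0.000302). The adjusted p of its alternatives ran from 0.000302 to 0.786.

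PTGS2 (ENSBTAG00000014127, chromosome 16, 67728006 to 67735629, minus strand) had 4.14, 8.38 and 8.43 FPKM in FT_1 to FT_3 and 4.98, 3.57 and 3.51 FPKM in WT_1 to WT_3. FT_1 lay inside the WT range, and the other FT libraries lay above it. Its log2 fold change was 0.96 with all 6 libraries (SE 0.32, 95% interval 0.18 to 1.74), which missed the threshold (adjusted p = 0.0568). It passed with DESeq2 (adjusted p = 0.0137) and with a trend on gene length removed (adjusted p = 0.0466). Without FT_1 the log2 fold change was 1.23 (SE 0.15, adjusted p = 5.64e-05), and the adjusted p of its alternatives ran from 5.64e-05 to 0.174. PTGS2 and PLA2G4A lie next to each other on chromosome 16, 171350 bases apart.

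As a share of the summed FPKM of both cyclooxygenases, PTGS2 made up 34.2%, 30.3% and 33.2% in FT_1 to FT_3 and 30.1%, 19.9% and 22.5% in WT_1 to WT_3. The lowest FT library, FT_2, and the highest WT library, WT_1, were 30.3% and 30.1%. The means were 32.6% ± 2.01 (SD, n = 3) in FT and 24.2% ± 5.30 in WT, and the share of FT_1 was close to those of the other FT libraries although the sum of both genes was 12.1 FPKM in FT_1 and 27.6 and 25.4 FPKM in FT_2 and FT_3.

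Among the terminal synthases of PGE2, PTGES (microsomal PGE synthase-1) is the inducible form that works with cyclooxygenase-2. PTGES (ENSBTAG00000019453, chromosome 11, 100121985 to 100133453, minus strand) had 29.4, 43.0 and 41.4 FPKM in FT_1 to FT_3 and 43.5, 40.0 and 46.5 FPKM in WT_1 to WT_3. FT_1 was again the low library, and the other 5 libraries overlapped. Its log2 fold change was -0.03 with all 6 libraries (SE 0.17, 95% interval -0.45 to 0.39, adjusted p = 0.903) and 0.13 without FT_1 (SE 0.09, 95% interval -0.07 to 0.33, adjusted p = 0.221), and the adjusted p of its alternatives ran from 0.172 to 0.946.

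PTGES2, a membrane-associated PGE synthase (ENSBTAG00000016218, chromosome 11, 98758509 to 98765006, minus strand), had 5.04, 4.20 and 3.58 FPKM in FT_1 to FT_3 and 5.50, 7.01 and 6.27 FPKM in WT_1 to WT_3. Every FT library lay below every WT library, with FT_1 nearest to them. The log2 fold change was -0.39 with all 6 libraries (SE 0.16, 95% interval -0.79 to -0.00119, adjusted p = 0.1001) and -0.52 without FT_1 (SE 0.13, adjusted p = 0.00697). Limma on log2(FPKM + 1) called it lower, with an adjusted p of 0.0377, and the adjusted p of its alternatives ran from 0.00697 to 0.268.

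PTGES3 (p23) is a co-chaperone of HSP90 that also has cytosolic PGE synthase activity. It was the one gene of the 10 called with all 6 libraries by the edgeR test described above. With the same libraries DESeq2 also called PTGS2 and PTGER4, and limma also called PTGES2. PTGES3 (ENSBTAG00000017967, chromosome 5, 56760933 to 56782192, plus strand) had 105, 78.8 and 72.7 FPKM in FT_1 to FT_3 and 178, 193 and 161 FPKM in WT_1 to WT_3. All 3 FT libraries lay below all 3 WT libraries. Its counts were 12447, 7088 and 7368 in FT_1 to FT_3 and 23079, 18465 and 16256 in WT_1 to WT_3. PTGES3 fell in FT by 0.90 on the log2 scale (SE 0.15, 95% interval -1.27 to -0.52, adjusted p = 0.00648) and by 1.06 without FT_1 (SE 0.08, adjusted p = 4.30e-06). It was called in all 16 alternatives, with a log2 fold change from -1.07 to -0.70 and an adjusted p from 1.58e-06 to 0.0329.

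The 3 genes whose pattern over the 6 libraries was nearest to PTGES3, by Euclidean distance between centred log2(CPM + 1) values among 12094 genes with a symbol, were RPS23, MRPS24 and RPS9. Their distances were 0.0863, 0.107 and 0.135. RPS23, a protein of the small ribosomal subunit, had 489, 376 and 348 FPKM in FT_1 to FT_3 and 886, 962 and 777 FPKM in WT_1 to WT_3.

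Within the summed FPKM of the 3 PGE synthases, PTGES3 made up 75.3%, 62.6% and 61.8% in FT_1 to FT_3 and 78.4%, 80.4% and 75.4% in WT_1 to WT_3. PTGES made up 21.1%, 34.1% and 35.1% in FT_1 to FT_3 and 19.2%, 16.6% and 21.7% in WT_1 to WT_3. PTGES2 was 3.04% to 3.61% in FT and 2.42% to 2.93% in WT. FT_1 was close to the WT libraries in the shares of PTGES3 and PTGES, and FT_2 and FT_3 lay apart from them.

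PTGIS is the prostacyclin synthase, a cytochrome P450 enzyme (ENSBTAG00000017537, chromosome 13, 77588007 to 77640794, minus strand). Its level was 29.2, 4.61 and 4.62 FPKM in FT_1 to FT_3 and 34.1, 34.1 and 31.4 FPKM in WT_1 to WT_3. FT_2 and FT_3 were low, and FT_1 was just below the WT libraries. The counts were 5055, 605 and 685 in FT_1 to FT_3 and 6447, 4750 and 4617 in WT_1 to WT_3. With all 6 libraries the log2 fold change was -1.23 (SE 0.75, 95% interval -3.06 to 0.60, adjusted p = 0.238). Without FT_1 it was -2.67 (SE 0.08, adjusted p = 2.87e-08), and the adjusted p of its alternatives ran from 2.87e-08 to 0.425.

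Nearest to PTGIS in pattern, a search made after the values were seen, were LIPG (distance 0.217), ACTN3 (0.349) and SELENOV (0.521). LIPG, the endothelial lipase, had 14.0, 2.27 and 2.50 FPKM in FT_1 to FT_3 and 16.3, 18.0 and 14.3 FPKM in WT_1 to WT_3.

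HPGD is the 15-hydroxyprostaglandin dehydrogenase, which starts the inactivation of PGE2 (ENSBTAG00000025942, chromosome 8, 6787675 to 6824508, minus strand). Its level was 0.34, 34.8 and 38.3 FPKM in FT_1 to FT_3 and 25.9, 31.6 and 24.8 FPKM in WT_1 to WT_3. FT_1 was nearly without HPGD, while FT_2 and FT_3 lay above all WT libraries. The counts were 55, 4164 and 5154 in FT_1 to FT_3 and 4466, 4010 and 3321 in WT_1 to WT_3, and the 95% Poisson interval of the 55 counts, which covers counting error only, was 41.4 to 71.6. From the lowest, HPGD ranked 44 of 13482 genes in the difference of FT_1 from FT_2 and FT_3 in log2 CPM. With all 6 libraries its log2 fold change was 0.01 (SE 1.25, 95% interval -3.04 to 3.05, adjusted p = 0.995), an interval that is wide in both directions. Without FT_1 it was 0.59 (SE 0.10, adjusted p = 0.000766), and the adjusted p of its alternatives ran from 0.000766 to 0.998.

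SYT4 (distance 0.584), DMRT2 (0.726) and RARRES1 (1.08) had the patterns nearest to HPGD, also searched for after the values were seen. DMRT2, a transcription factor of the developing dermomyotome, had 0.05, 29.1 and 26.6 FPKM in FT_1 to FT_3 and 14.6, 14.2 and 11.9 FPKM in WT_1 to WT_3. These 3 genes were near 0 in FT_1, as HPGD was, which follows from how they were chosen.

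**Figure D3:**
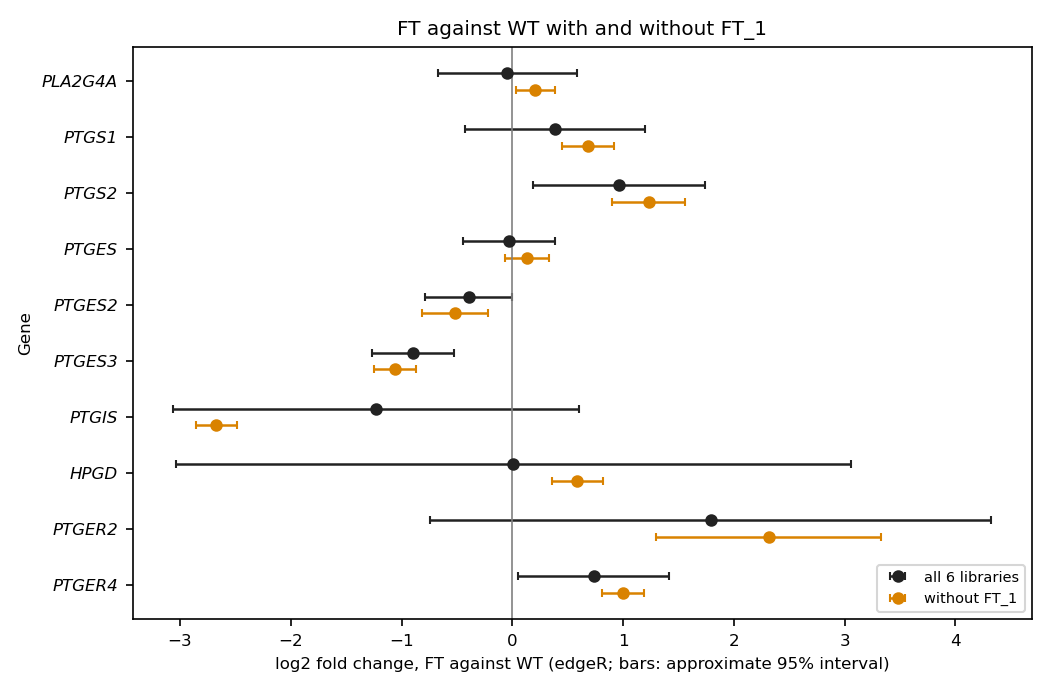
Log2 fold change of FT against WT (x axis) for each of the 10 genes (y axis), with bars for the approximate 95% interval, with all 6 libraries (black) and without FT_1 (orange). The interval of HPGD runs from -3.04 to 3.05 with all libraries and from 0.36 to 0.82 without FT_1, and PTGES3 is below 0 in both.

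PTGER2 and PTGER4 encode the PGE2 receptors EP2 and EP4, which raise cyclic AMP. PTGER4 (ENSBTAG00000014972, chromosome 20, 33747133 to 33759226, minus strand) had 8.64, 17.6 and 16.7 FPKM in FT_1 to FT_3 and 9.27, 10.4 and 9.33 FPKM in WT_1 to WT_3. FT_1 lay just below the WT libraries, and the other FT libraries lay above them. Its log2 fold change was 0.73 with all 6 libraries (SE 0.28, 95% interval 0.05 to 1.42, adjusted p = 0.0843) and 1.002 without FT_1 (SE 0.08, adjusted p = 5.75e-06). DESeq2 called it higher with all libraries, with an adjusted p of 0.0371, and the adjusted p of its alternatives ran from 5.75e-06 to 0.213.

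PTGER2 (ENSBTAG00000002163, chromosome 10, 11826416 to 11838823, minus strand) was the least abundant of the 10, at 0.10, 1.39 and 1.60 FPKM in FT_1 to FT_3 and 0.44, 0.11 and 0.45 FPKM in WT_1 to WT_3. Its counts were 17, 174 and 225 in FT_1 to FT_3 and 79, 14 and 64 in WT_1 to WT_3. FT_1 and WT_2 were both low, so the WT libraries differed among themselves as well. The log2 fold change was 1.79 with all 6 libraries (SE 1.04, 95% interval -0.74 to 4.32, adjusted p = 0.216) and 2.32 without FT_1 (SE 0.45, adjusted p = 0.00148), and the adjusted p of its alternatives ran from 0.00148 to 0.483.

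Of the other prostanoid receptors and their partner, 5 of 8 were tested by edgeR. With all 6 libraries 1 rose and 0 fell in FT, where 20.1% and 18.9% of all genes were called. Without FT_1 3 rose and 1 fell, where 30.6% and 31.5% were. PTGDR, the receptor DP1 of prostaglandin D2, had 2.64, 6.76 and 5.96 FPKM in FT_1 to FT_3 and 0.39, 0.09 and 0.17 FPKM in WT_1 to WT_3, so every FT library was above every WT library. PTGDR rose by a log2 fold change of 4.68 (SE 0.66, adjusted p = 0.00358) and by 4.95 without FT_1 (SE 0.34, adjusted p = 1.74e-06).

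PTGER3, the EP3 receptor, which lowers cyclic AMP, had 0.25, 14.8 and 17.7 FPKM in FT_1 to FT_3 and 3.84, 3.31 and 3.45 FPKM in WT_1 to WT_3. FT_1 was the lowest of the 6 libraries and FT_2 and FT_3 the highest. Its log2 fold change was 1.80 with all 6 libraries (adjusted p = 0.275) and 2.37 without FT_1 (adjusted p = 2.37e-07). PTGFR, the receptor of prostaglandin F2 alpha, had 1.36, 15.3 and 15.8 FPKM in FT_1 to FT_3 and 21.3, 18.5 and 21.9 FPKM in WT_1 to WT_3 (log2 fold change -0.76, adjusted p = 0.485, and -0.23, adjusted p = 0.038 without FT_1).

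TBXA2R, the thromboxane receptor, had 2.91, 4.72 and 4.49 FPKM in FT_1 to FT_3 and 2.80, 2.26 and 2.91 FPKM in WT_1 to WT_3 (log2 fold change 0.76, adjusted p = 0.0515, and 0.96, adjusted p = 0.000317 without FT_1). DESeq2 called TBXA2R higher with all libraries (adjusted p = 0.0183). PTGFRN, a partner protein of the PTGFR receptor, had 58.7, 38.1 and 40.7 FPKM in FT_1 to FT_3 and 42.6, 37.2 and 40.1 FPKM in WT_1 to WT_3 and was not called (log2 fold change 0.35, adjusted p = 0.152, and 0.15, adjusted p = 0.116 without FT_1). PTGER1, PTGIR and PTGDR2 were near 0, with at most 11, 10 and 22 counts in a library. Of the summed FPKM of the 4 PGE2 receptors, PTGER4 made up 96.1%, 52.0% and 46.3% in FT_1 to FT_3 and 68.4%, 74.9% and 70.5% in WT_1 to WT_3.

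**Figure D4:**
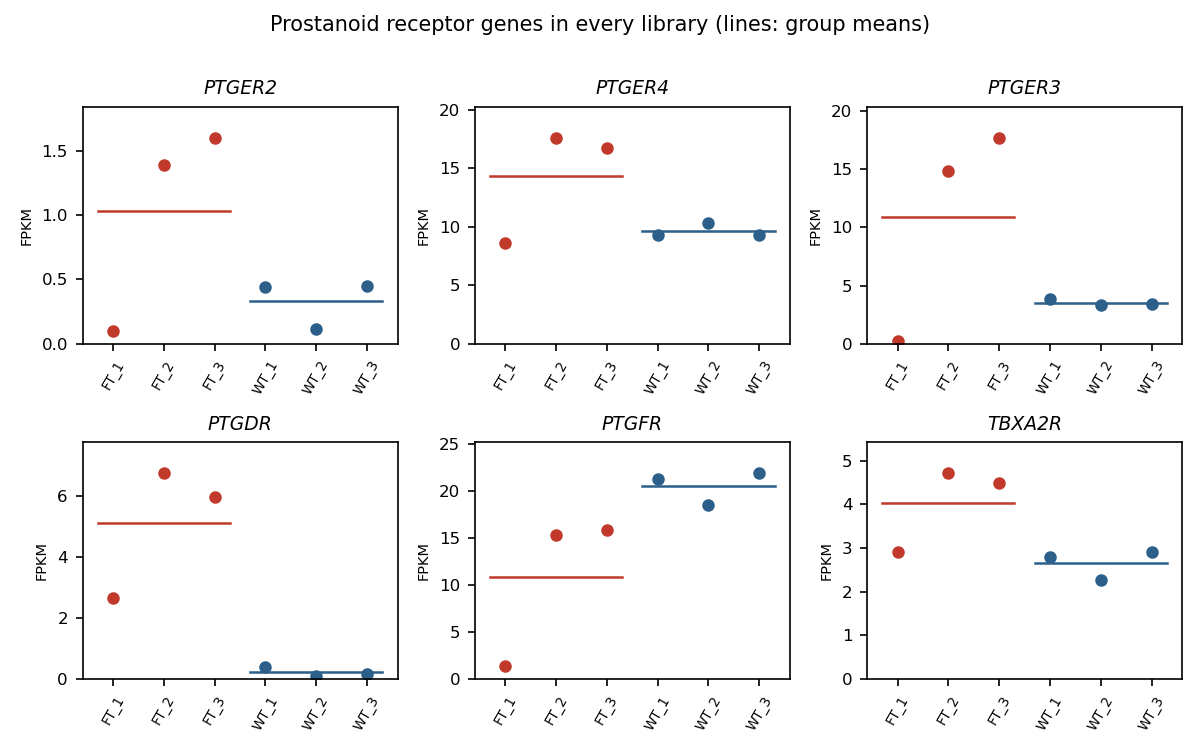
FPKM (y axis, from 0) of 6 prostanoid receptor genes in the 3 FT (red) and 3 WT (blue) libraries (x axis), with lines at the group means. PTGDR is above WT in all 3 FT libraries, from 2.64 FPKM, while PTGER3 is at 0.25 FPKM in FT_1 and at 14.8 and 17.7 FPKM in FT_2 and FT_3.

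Other genes of the pathway were counted in 8 lists by the edgeR test. It called 20.1% of all genes higher and 18.9% lower with all 6 libraries, and 30.6% and 31.5% without FT_1. Among other prostanoid synthases and reductases, 0 of the 8 tested rose and 6 fell (CBR1, CBR3, CBR4, AKR1C4, PRXL2B and GSTM3), as many as without FT_1, and their median log2 fold change was -0.84, and -0.76 without FT_1. PRXL2B, the prostamide and prostaglandin F synthase, had 21.4, 21.0 and 19.7 FPKM in FT_1 to FT_3 and 44.2, 46.4 and 46.0 FPKM in WT_1 to WT_3 (log2 fold change -0.98, adjusted p = 0.000811, and -0.99, adjusted p = 7.80e-06 without FT_1). AKR1C4 had 0.28, 0.31 and 0.41 FPKM in FT_1 to FT_3 and 4.52, 4.11 and 4.85 FPKM in WT_1 to WT_3 (log2 fold change -3.58, adjusted p = 0.000715, and -3.45, adjusted p = 1.66e-06 without FT_1). GSTM3, a glutathione transferase, fell by 2.64 on the log2 scale (adjusted p = 0.00376) and by 3.17 without FT_1 (adjusted p = 1.04e-07). AKR1C4 and GSTM3 belong to families of like genes, so reads may have been split between copies and these values are uncertain.

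The carbonyl reductases CBR1, CBR3 and CBR4 had mean levels of 1.84, 4.81 and 9.02 FPKM in FT and 5.63, 8.80 and 13.4 FPKM in WT, and every FT library lay below every WT library for each of them. Their log2 fold changes were -1.46, -0.71 and -0.41 with all 6 libraries and -1.75, -0.52 and -0.32 without FT_1. AKR1B1, an aldo-keto reductase with prostaglandin F synthase activity, had 96.6, 61.6 and 54.1 FPKM in FT_1 to FT_3 and 61.7, 71.9 and 60.5 FPKM in WT_1 to WT_3 and was not called (log2 fold change 0.28, adjusted p = 0.341, and 0.01, adjusted p = 0.937 without FT_1). PTGDS, a prostaglandin D synthase, had 1.88 to 3.83 FPKM in FT and 2.93 to 5.07 FPKM in WT and was not called (log2 fold change -0.20, adjusted p = 0.684, and 0.06, adjusted p = 0.848 without FT_1). HPGDS, the other prostaglandin D synthase, had 2 counts in FT_1 and 0 elsewhere.

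For prostanoid transport and further breakdown, 1 of 8 tested rose and 2 fell, and without FT_1 1 of 9 rose and 6 fell. Of these 6, SLCO2A1, SLCO2B1 and CYP4F2 had 0 counts in FT_2 and FT_3 and at most 23, 63 and 17 counts in a WT library, so they passed the filter through WT alone, and FT_1 had 105, 23 and 8 counts of them. PTGR1, a reductase that acts after HPGD, had 4.28, 21.6 and 21.1 FPKM in FT_1 to FT_3 and 72.9, 75.2 and 73.6 FPKM in WT_1 to WT_3. PTGR1 fell by 2.07 on the log2 scale (SE 0.59, adjusted p = 0.0354) and by 1.62 without FT_1 (adjusted p = 1.08e-07). ZADH2, another prostaglandin reductase, had means of 7.69 FPKM in FT and 17.2 FPKM in WT (log2 fold change -0.999, adjusted p = 0.0218, and -0.78, adjusted p = 0.00045 without FT_1). SLCO3A1, an organic anion transporter that carries prostaglandins, had 337, 370 and 420 counts in FT_1 to FT_3 and 10, 0 and 0 in WT_1 to WT_3. This gene, the 1 rise of the list, passed the filter through FT alone. Its log2 fold change of 7.13 (adjusted p = 0.00557), and 7.21 without FT_1 (adjusted p = 3.54e-06), rests on 10 counts in WT, so its size is uncertain.

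Fatty acid release held 12 tested genes, of which 2 rose (DAGLA and DAGLB) and 3 fell (PLA2G12A, PLAA and FAAH), with 4 and 6 of 13 without FT_1. Of the latter 6, PLA2G2A had 0 counts in every FT library and 25, 19 and 4 counts in WT_1 to WT_3, so it passed the filter through WT alone. PLAA, the phospholipase A2 activating protein, had 19.8, 17.5 and 18.7 FPKM in FT_1 to FT_3 and 31.8, 31.8 and 29.5 FPKM in WT_1 to WT_3 (log2 fold change -0.57, adjusted p = 0.00306, and -0.61, adjusted p = 6.28e-05 without FT_1). DAGLA, a diacylglycerol lipase, had means of 2.18 FPKM in FT and 1.18 FPKM in WT (log2 fold change 1.04, adjusted p = 0.0297, and 1.28, adjusted p = 3.52e-05 without FT_1), and DAGLB had 6.85 and 5.77 FPKM (log2 fold change 0.41, adjusted p = 0.024, and 0.43, adjusted p = 0.00434 without FT_1). Limma called neither DAGLA (adjusted p = 0.0623) nor DAGLB (adjusted p = 0.115) with all libraries. FAAH, which breaks down fatty acid amides, had 1.16 FPKM in FT and 2.21 FPKM in WT (log2 fold change -0.77, adjusted p = 0.0193, and -0.74, adjusted p = 0.00505 without FT_1).

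Lipoxygenase and leukotriene genes gave 0 of 9 higher and 2 of 9 lower, PTGR1 again and ALOX12B, and 0 and 5 without FT_1. ALOX12B, an epidermal lipoxygenase, had at most 4 counts in an FT library and 30 to 44 counts in the WT libraries. It passed the filter on low counts through WT alone, so the size of its fold change is uncertain (log2 fold change -4.46, adjusted p = 0.0248, and -3.83, adjusted p = 0.00517 without FT_1). P450 epoxygenase and epoxide hydrolase genes gave 0 of 5 in either direction by edgeR, and 0 higher and 1 lower without FT_1. With all libraries POR was called lower by limma (adjusted p = 0.0134) and by DESeq2 (adjusted p = 0.0299), and EPHX3 by limma (adjusted p = 0.0365).

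Among inducers and regulators of cyclooxygenase-2, 8 of 30 rose and 5 fell, where 20.1% and 18.9% of all genes were called, and 9 and 12 without FT_1, where 30.6% and 31.5% were. FOS, a subunit of the transcription factor AP-1, had 34.7, 49.9 and 41.8 FPKM in FT_1 to FT_3 and 6.56, 5.87 and 8.75 FPKM in WT_1 to WT_3 (log2 fold change 2.74, adjusted p = 0.00085, and 2.87, adjusted p = 3.20e-07 without FT_1). NFATC2 rose as well, from a mean of 0.08 FPKM in WT to 0.43 FPKM in FT (log2 fold change 2.52, adjusted p = 0.0116, and 2.35, adjusted p = 0.00372 without FT_1). ANXA2, an annexin, had 1105, 1076 and 1020 FPKM in FT_1 to FT_3 and 4508, 5036 and 4868 FPKM in WT_1 to WT_3 (log2 fold change -2.01, adjusted p = 0.000523, and -2.03, adjusted p = 4.69e-08 without FT_1). ATF3, a stress-induced transcription factor, had means of 5.94 FPKM in FT and 24.8 FPKM in WT (log2 fold change -1.91, adjusted p = 0.000638, and -2.04, adjusted p = 1.27e-07 without FT_1).

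Cyclic AMP signalling downstream of PGE2 receptors held 38 tested genes, of which 9 rose and 3 fell, beside 20.1% and 18.9% of all genes, with 16 and 10 without FT_1, beside 30.6% and 31.5%. GRK5, a kinase that desensitises receptors, had 20.7, 19.9 and 18.0 FPKM in FT_1 to FT_3 and 4.23, 4.69 and 4.89 FPKM in WT_1 to WT_3 (log2 fold change 2.24, adjusted p = 0.000523, and 2.21, adjusted p = 5.34e-08 without FT_1). PDE4B, a phosphodiesterase that breaks down cyclic AMP, had means of 6.61 FPKM in FT and 2.11 FPKM in WT (log2 fold change 1.80, adjusted p = 0.00225, and 1.54, adjusted p = 2.27e-06 without FT_1). PRKAR1A, a regulatory subunit of protein kinase A, fell by 0.41 on the log2 scale (adjusted p = 0.00834) and by 0.46 without FT_1 (adjusted p = 0.000126). RAPGEF4, a cyclic AMP sensor, fell by 1.57 from a low level of 0.32 FPKM in WT (adjusted p = 0.0458), and by 1.79 without FT_1 (adjusted p = 0.0128).

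**Figure D5:**
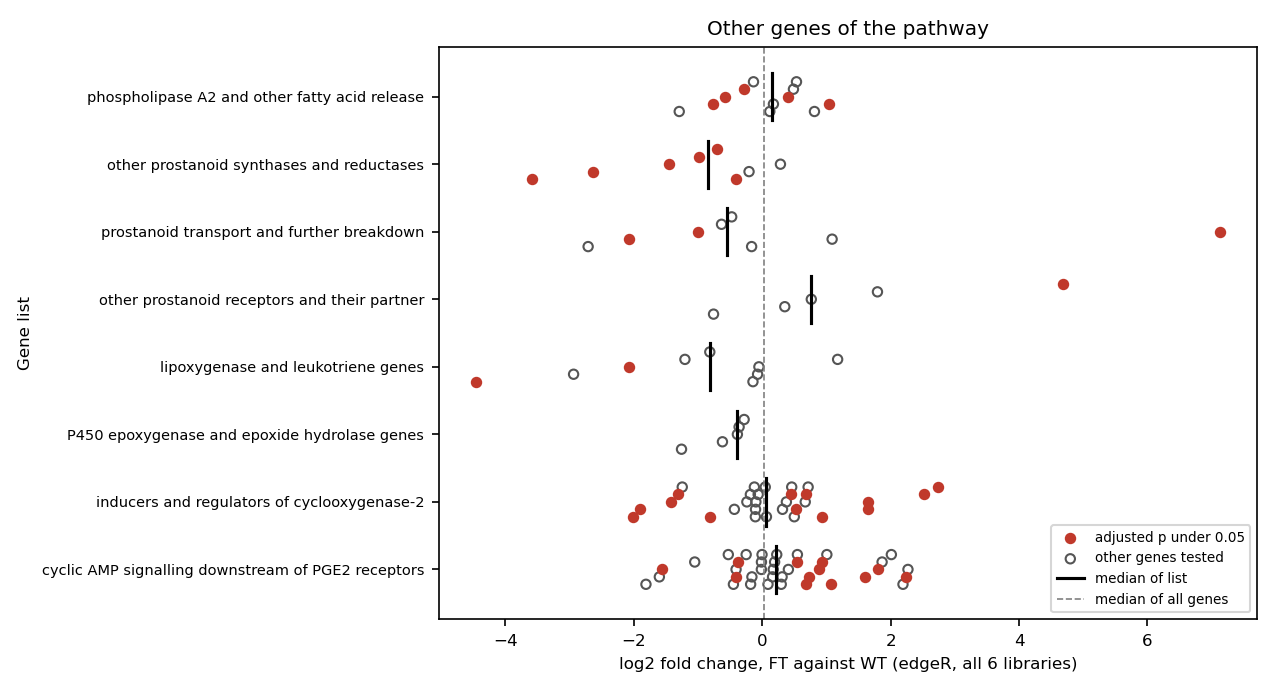
Log2 fold change of FT against WT with all 6 libraries (x axis) for the tested genes of 8 pathway lists (y axis). Red points have an adjusted p under 0.05, a black bar marks the median of a list and the dashed line the median of all genes, 0.03, and the list of other prostanoid synthases and reductases has a median of -0.84.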

How the data were processed

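Poly(A) RNA of 3 FT and 3 WT libraries was sequenced in pairs. The deposited table gives raw counts per gene and FPKM values, both made by the authors, whose notes name HISAT2 2.0, Bowtie 0.12.2 and StringTie 1.3.0. The strand setting and the treatment of reads with several matches were not given in the sources used here. The notes name the mouse build mm8, while the gene IDs are bovine, so the build of the coordinates is not known. Both ends of 59.0% of 13422 shared symbols lay within 1 kb of RefSeq's ARS-UCD2.0.

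Counts were tested with edgeR 4.0.16 in R 4.3.3 (quasi-likelihood, TMM factors, filterByExpr, group as the only term), and FPKM were given as levels. DESeq2 1.42.0 and limma 3.58.1 (log2(FPKM + 1), mean FPKM of at least 0.5) were alternatives. Standard errors of edgeR were derived from its F statistic and are approximate. The genes, lists and the omission of FT_1 were chosen with earlier results of these data known. Of 245 listed pathway and marker symbols, 201 matched the table. From each pathway list the text names the 2 called genes with the largest rise and the 2 with the largest fall whose FPKM did not overlap, and each prostanoid receptor and synthase with a mean FPKM of at least 0.5. PTGS1 contains a microRNA gene on the same strand.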

Additional observations from a re-analysis of the deposited data

How the results depend on the processing

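PTGES3 was called lower in all 16 alternatives. The count of the 10 genes called higher, 0 with all libraries, was 2 with DESeq2 and 1 with a length trend removed, and the count called lower, 1, was 2 with total counts only and with limma at either pseudocount. At the threshold of the methods the higher count, 0, was 1 with the length trend removed, and the lower count, 0, was 1 with total counts only and 2 with limma at either pseudocount. Over all genes that threshold called 1378 higher, and 462 with limma on log2(FPKM + 1) and 749 with log2(FPKM + 0.1).

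Leaving out 1 library at a time gave 1516 to 4215 genes called higher and 1531 to 4337 lower. Among the 10 genes it gave 0 to 6 higher and 1 to 3 lower, and at the threshold of the methods 0 to 3 higher and 0 to 2 lower. The highest values came without FT_1, and the lowest counts over all genes without WT_1.

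Log2 fold changes near 0 changed sign. PLA2G4A was 0.029 and PTGES 0.36 with the length trend removed, and HPGD was -0.16 with total counts only and -1.19 and -1.71 with limma at pseudocounts 1 and 0.1. With 1 library left out, PLA2G4A ran from -0.20 to 0.21, PTGES from -0.13 to 0.13 and HPGD from -0.48 to 0.59, each highest without FT_1. The cause was not tested.

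Replicate numbers did not pair the libraries, which came from different fetuses (correlations of same-numbered deviations 0.00211, -0.0183 and 0.0144). With the number as a block, 1838 genes were higher and 1741 lower, 0 and 1 of the 10 genes were called, HPGD was -0.91, and 0 and 1 passed the threshold of the methods (1153 and 1180 over all genes).
The robust variance prior, added after seeing the data, changed no call among the 10 genes. The shares of cyclooxygenases, PGE synthases and PGE2 receptors moved by less than 1 SD with counts per relative gene length.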
